A study of Arabidopsis thaliana with 6 samples.

Results

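The lignin-linked class III peroxidases are 8 genes of Arabidopsis thaliana, chosen by locus identifier from the 34484 identifiers of the deposited table. They are PRX17 (AT2G22420), PRX25 (AT2G41480), PRX42 (AT4G21960), PRX52 (AT5G05340), PRX64 (AT5G42180), PRX66 (AT5G51890), PRX71 (AT5G64120) and PRX72 (AT5G66390), and all 8 were in the table. They are 8 of the 73 class III peroxidase loci of this plant. Total RNA of mature stems, labelled 42 days after flowering, was sequenced in 6 libraries from greenhouse plants grown at 20 °C in long days (16 h light). The titles give 3 libraries to a gamma-VPE mutant and 3 to wild type, so γVPE, a vacuolar cysteine protease gene, is the only named difference between the groups. The labels name neither the mutant allele nor the number of plants in a library. The 3 columns named WT were read as wild type, and the 3 named WT_V as the mutant because no other columns remained. No genotype stands in the header, so each direction below is given between the sets under their column names.

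Class III peroxidases are secreted haem enzymes of plants. In the cell wall they use hydrogen peroxide to turn monolignols, the building blocks of lignin, into radicals that couple into the polymer. In stems this takes place mainly in xylem vessels and in the fibres between the vascular bundles, where laccases carry out the same oxidation with oxygen. Peroxidases also produce and consume reactive oxygen species, and many members of the family have roles outside lignin.

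All 8 members carry the arginine and the distal histidine with which a peroxidase splits hydrogen peroxide. The coding bases around them are shown because they are what the members share in sequence, read 5′ to 3′ from the TAIR10.1 genome with its RefSeq annotation. Capitals mark the arginine codon and the distal histidine codon.
PRX17: atgCGTttccaatttCACgactgtttcgtc
PRX25: cttAGGcttcatttcCATgactgttttgtt
PRX42: ctcCGTaacatcttcCATgactgcgccgtt
PRX52: ctcCGTctcttcttcCACgattgctttgtc
PRX64: ttgAGGatgcatttcCACgactgtttcgtc
PRX66: ctaAGAatgttcttcCACgattgcttcatc
PRX71: ctgAGAatgcatttcCACgactgttttgtc
PRX72: ctcAGActccatttcCACgactgtttcgtc
The same spacing of arginine, phenylalanine, histidine, aspartate and cysteine was found in the predicted proteins of 69 of the 73 loci.

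The 8 predicted proteins have 317 to 336 residues, and each gene has 1 annotated transcript of 3 or 4 exons. Protein identity over the 28 pairs of members ran from 34.0 to 54.8% with a median of 43.05%. The closest relative of PRX71 in the whole family was AT5G39580, with 76.7% protein and 78.5% coding identity, and that of PRX72 was AT3G50990, with 69.0% and 74.3%. PRX64 and PRX66 were each other's closest relative at 52.8% protein identity. How reads with several matches were counted is not given in the sources used here. In TAIR10.1, PRX64 lies at chr5:16852628-16854224 on the plus strand and overlaps the opposite gene AT5G42190 by 34 bases. PRX66 lies at chr5:21090956-21092410 on the minus strand and overlaps the opposite gene AT5G51880 by 118 bases. Without a stated strand setting, reads in these overlaps cannot be told apart. AT5G42190 measured 98.8 ± 0.579 FPKM in WT_V and 106 ± 2.26 in WT, and AT5G51880 24.0 ± 0.354 and 19.8 ± 1.13 (SD, n = 3).

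Values are FPKM, fragments per kilobase of gene, scaled to the size of the library, as deposited. The scaling total behind them, recovered from the steps of the values, was 40307737 to 51012959 per library. The γVPE transcript, AT4G32940, ranged over 325 to 328 FPKM in WT_V and 163 to 164 FPKM in WT, so it was not lower in the set taken as the mutant. The libraries also differed in organ markers. The 8 seed markers summed to 15260 to 15520 FPKM in WT_V and to at most 0.0353 FPKM in WT, where 7 of the 8 were listed at 0 in every library. The 9 flower markers summed to 126 to 131 FPKM in WT_V and 30.1 to 33.1 FPKM in WT, with none at 0. Of these, 7 of the 7 tested were called higher. AMS and MS2 were too low to be tested. AMS went the other way, averaging 0.35 FPKM in WT_V and 0.47 FPKM in WT, and MS2 averaged 0.47 and 0.17 FPKM. The 7 xylem markers summed to 108 to 112 FPKM in WT_V and 55.5 to 56.9 FPKM in WT. All 7 were called higher as deposited, against 6 under median-of-ratios scaling and 5 after quantile normalization, and none lower. The 2 fruit markers summed to 19.0 to 20.1 FPKM in WT_V and 7.69 to 8.73 FPKM in WT, both called higher. The part of the seed, flower, fruit and xylem markers in the peroxidase differences below was not tested. In bulk RNA, fewer cells of a type and less RNA per cell cannot be told apart.

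Most members were higher in WT_V, and the most abundant one was lower. PRX17, PRX25, PRX52, PRX64, PRX66 and PRX71 rose 1.99-fold to 3.99-fold, while PRX42 fell to 65.2% of its WT level. A gene entered the test when its mean over all libraries reached 1 FPKM, and differences were tested with limma on log2(FPKM + 1), with Benjamini-Hochberg adjustment over all 19144 such genes at 0.05. Of the 8 members 7 passed this minimum, and of those 6 were called higher and 1 lower. PRX72 was below it. The minimum can be met through 1 set alone, and PRX71, at a mean of 0.984 FPKM in WT, met it through WT_V. Over all tested genes 51.9% were called higher and 24.1% lower, 76.0% in all, so a call by itself sets a gene little apart in these data. The median log2 difference of the 7 tested members was 1.21, against 0.17 for all tested genes. For all 7 the WT_V and WT values did not overlap, which held for 77.6% of tested genes. Over all tested genes 9931 were higher and 4619 lower as deposited, 6850 and 7213 under median-of-ratios scaling, and 5778 and 8439 after quantile normalization. The members kept 6 higher and 1 lower under both. The titles number 3 libraries a group, but the design text of the series states that there were no replicates, and no label says that separate plants were used. Every n = 3 and p-value here therefore measures the spread between libraries, which may be technical only.

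**Figure D1:**
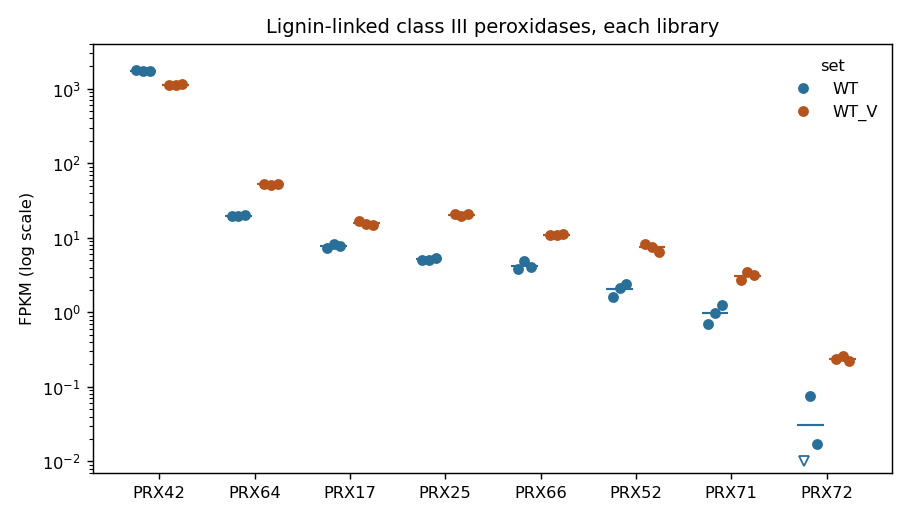
FPKM of the 8 members on a log scale in each of the 6 libraries, blue for WT and orange for WT_V, with a line at the mean of each set. The open triangle is a library with PRX72 listed at 0, drawn at 0.01. PRX42 is the member that lies lower in WT_V, at 1129 to 1147 FPKM against 1730 to 1764 FPKM.

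PRX42, annotated as PRXR1 in the reference and located at chr4:11646109-11648644 on the minus strand, was by far the most abundant member. Its values were 1129, 1140 and 1147 FPKM in WT_V and 1764, 1747 and 1730 FPKM in WT. The WT values all lay above the WT_V values. Its log2 difference was -0.62 ± 0.01 (SE, limma adjusted p = 8.86e-12), and 4.8% of tested genes had a lower one. By mean level it ranked 23 among all identifiers in WT_V and 21 in WT. The size of its difference depended on the scaling used. Under median-of-ratios scaling it was -0.82, and with quantile normalization, which gives genes of equal rank equal values, -0.11. Scaling moved the median of all tested genes from 0.17 to -0.01 and to -0.08 in turn. Set against those medians, PRX42 stood at -0.78 as deposited, -0.81 under median-of-ratios and -0.03 under quantile normalization. The call stood under each of these, and between 99396 and 148473 recovered counts lay behind its value in a library.

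PRX64 and PRX66 both rose, with close ratios of mean FPKM. PRX64 has been linked to the lignin of the Casparian strip in the root endodermis, and PRX66 to tracheary elements of roots. PRX64 measured 53.6, 51.3 and 53.5 FPKM in WT_V and 19.6, 19.7 and 20.6 FPKM in WT, a ratio of 2.65 and a log2 difference of 1.36 ± 0.04 (SE, limma adjusted p = 9.04e-11). PRX66 measured 10.87, 11.02 and 11.29 FPKM in WT_V and 3.81, 4.90 and 4.02 FPKM in WT, a ratio of 2.61 and a log2 difference of 1.21 ± 0.08 (SE, limma adjusted p = 1.8e-07). No WT library reached the WT_V range for either gene. The level of PRX64 was 4.66 to 4.93 times that of PRX66 in the WT_V libraries and 4.02 to 5.13 times in the WT libraries, so this ratio overlapped between the sets (exact two-sided permutation p = 1.0, n = 3 per set). The 7 endodermis markers, the Casparian strip genes CASP1 to CASP5 with MYB36 and ESB1, summed to only 1.88 to 2.64 FPKM in WT_V and 1.30 to 1.64 FPKM in WT. None of the 7 reached a mean of 1 FPKM, and CASP5 was listed at 0 in all 6 libraries.

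PRX25 showed the greatest rise among the tested members, and PRX17 the smallest. PRX25, at chr2:17296894-17298725 on the minus strand, is known from mutants with altered stem lignin. It measured 21.2, 19.6 and 21.0 FPKM in WT_V against 4.99, 5.12 and 5.36 FPKM in WT, a ratio of 3.99 and a log2 difference of 1.81 ± 0.06 (SE, limma adjusted p = 3e-10). PRX17, at chr2:9513024-9514552 on the plus strand, is known as a target of the MADS factor AGL15. It measured 16.9, 15.4 and 14.7 FPKM in WT_V against 7.42, 8.39 and 7.82 FPKM in WT. Its ratio was 1.99 and its log2 difference 0.91 ± 0.07 (SE, limma adjusted p = 3.25e-07). The 2 genes changed places in the order of levels. PRX25 stood at 1.25 to 1.42 times PRX17 in the WT_V libraries and at 0.61 to 0.686 times PRX17 in the WT libraries. These ratios did not overlap, and a two-sided exact permutation test returned p = 0.1, its lowest possible value with n = 3 per set (adjusted p = 0.14 over 14 relations).

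PRX52 and PRX71 were low, and their ratios lay between those of PRX17 and PRX25. PRX52, at chr5:1578869-1580875 on the minus strand, is known for a part in the syringyl lignin of interfascicular fibres. It measured 8.34, 7.50 and 6.44 FPKM in WT_V and 1.62, 2.10 and 2.39 FPKM in WT, a ratio of 3.65 and a log2 difference of 1.48 ± 0.11 (SE, limma adjusted p = 5.72e-07). PRX71, at chr5:25659257-25661007 on the minus strand, is linked to lignification and bound to the cell wall. It measured 2.69, 3.43 and 3.18 FPKM in WT_V and 0.703, 0.978 and 1.27 FPKM in WT, a ratio of 3.15 and a log2 difference of 1.05 ± 0.12 (SE, limma adjusted p = 1.6e-05). Neither gene had overlapping sets. With quantile normalization the difference of PRX52 was 0.93 and that of PRX71 0.37 (limma adjusted p = 0.0195), and both stayed called. PRX71 rested on 38 to 70 recovered counts in a WT library and 178 to 235 in a WT_V library.

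PRX72, at chr5:26515905-26517599 on the minus strand and known from mutants with less syringyl lignin and thinner secondary walls, was barely present. Its values were 0.240, 0.259 and 0.220 FPKM in WT_V, which is 17, 19 and 15 recovered counts. In WT it was listed at 0 in the library of replicate 1 and stood at 0.0748 and 0.0169 FPKM, 5 and 1 counts, in the other two. Taking 3 counts as the limit for a listed 0, the WT library of replicate 1 allows up to 0.0517 FPKM, and the exact two-sided 95% limit is 3.69 counts, or 0.0636 FPKM. Pooled over the libraries of a set there were 51 counts against 6, a ratio per scaling total of 7.35 with an exact 95% interval of 3.16 to 20.97. That interval covers counting error only and not the spread between libraries. The gene did not enter the main test because its mean was under 1 FPKM.

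**Figure D2:**
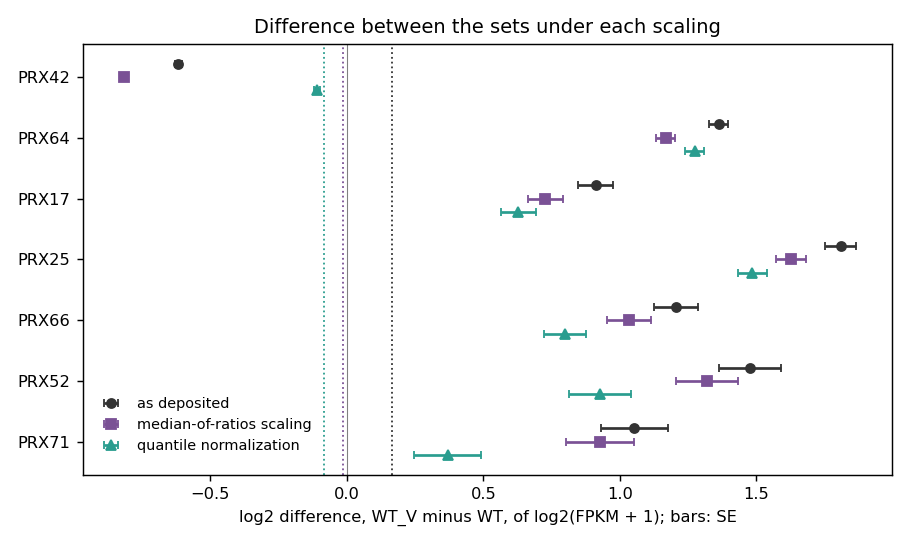
Log2 difference, WT_V minus WT, of the 7 tested members with its SE as bars, as deposited and under 2 other scalings, and dotted lines at the median of all tested genes in each. The 6 raised members stay above those medians under each scaling, while PRX42 moves from -0.62 as deposited to -0.11 with quantile normalization.

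The order of levels was the same in both sets apart from PRX25 and PRX17. From high to low it ran PRX42, PRX64, PRX25, PRX17, PRX66, PRX52, PRX71 and PRX72 in WT_V, and no neighbours in that order had overlapping ranges over the libraries. In WT it ran PRX42, PRX64, PRX17, PRX25, PRX66, PRX52, PRX71 and PRX72. There the ranges of neighbours did not overlap either, but PRX25 and PRX66 were close, with a lowest PRX25 value of 4.99 FPKM and a highest PRX66 value of 4.90 FPKM.

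The summed level of the 8 members followed PRX42. The sum was 1243, 1249 and 1257 FPKM in WT_V and 1802, 1788 and 1771 FPKM in WT, or 69.9% of the WT sum. PRX42 alone made up 91.1 ± 0.250% of it in WT_V and 97.8 ± 0.123% in WT (SD, n = 3). PRX64 made up 4.23 ± 0.104% and 1.12 ± 0.0399%. Without PRX42 the other 7 summed to 114, 108 and 110 FPKM in WT_V and 38.1, 41.3 and 41.5 FPKM in WT, a ratio of 2.75. As deposited, the 2 sums thus moved in opposite directions, with no overlap between sets in either (exact two-sided permutation p = 0.1 for each, which 3 libraries a set cannot go below). The log2 difference of PRX42, -0.62 as deposited, was -0.11 after quantile normalization, and the sums were not taken under other scalings. Within the sum of those 7, PRX64 held 47.6 ± 0.753% in WT_V and 49.6 ± 1.78% in WT (SD, n = 3). The share of PRX25 was 18.5 ± 0.493% against 12.8 ± 0.366%, and that of PRX17 14.2 ± 0.758% against 19.6 ± 0.729%. The ranges of PRX25 and of PRX17 did not overlap, and those of PRX64 did.

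Levels were also set against genes of the same walls inside each library, a ratio that a change of library scaling factor leaves as it is. The reference was the sum of CESA4, CESA7 and CESA8, the cellulose synthase genes of secondary walls, which was 57.3 to 60.5 FPKM in WT_V and 22.2 to 23.2 FPKM in WT. PRX64 stood at 93.5, 84.8 and 89.5% of that sum in WT_V and 88.0, 85.1 and 90.9% in WT. PRX66 stood at 19.0, 18.2 and 18.9% in WT_V and 17.1, 21.2 and 17.8% in WT. For both genes the sets overlapped (exact two-sided permutation p = 0.8 for PRX64 and p = 1.0 for PRX66, n = 3 per set). In mean FPKM, PRX64 rose 2.65-fold and PRX66 2.61-fold, more than CESA4 and CESA7 but less than CESA8. The overlap is thus shown for the sum only, and ratios to each of these genes alone were not tested. Overlapping ranges in 3 libraries a set do not show that the ratios were equal. PRX71 overlapped as well, at 4.69 to 5.67% against 3.16 to 5.62%.

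For PRX25, PRX17, PRX52 and PRX42 the ranges of the ratio to this sum did not overlap between the sets. PRX25 stood at 32.3 to 36.9% of the sum in WT_V and 22.1 to 23.7% in WT. PRX17 stood at 24.7 to 29.5% in WT_V and 33.4 to 36.2% in WT, and so was lower against this sum in WT_V although its own level was higher. Its mean FPKM rose 1.99-fold, less than that of CESA4, CESA7 or CESA8. The ratio of PRX17 to each of these genes alone was not tested, so sets apart are shown for the sum only. PRX52 stood at 10.8 to 14.5% and 7.28 to 10.6%, a narrow gap. By mean FPKM, PRX25 rose 3.99-fold and PRX52 3.65-fold, more than CESA4 and CESA7 but less than CESA8. Their higher ratio to the sum thus does not extend to CESA8. PRX42 stood at 1880 to 1970% of the sum in WT_V and 7540 to 7940% in WT. Each of these 4 pairs of ranges was apart, at an exact two-sided permutation p = 0.1 (adjusted p = 0.14 over 14 relations, n = 3 per set).

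**Figure D3:**
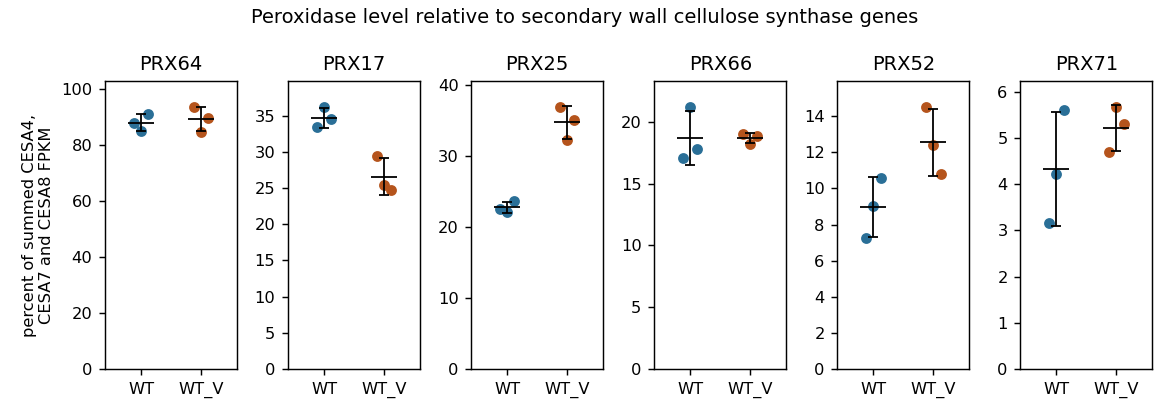
Level of 6 members as a percentage of the summed FPKM of CESA4, CESA7 and CESA8 in the same library, each panel with its own axis from 0, with points for libraries and bars for the mean and SD of 3. PRX64 and PRX66 overlap between WT and WT_V, PRX25 lies higher in WT_V at 32.3 to 36.9% against 22.1 to 23.7%, and PRX17 lies lower.

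The promoters of PRX42 and PRX64 are shown because these are the most abundant members that moved in opposite directions. Each run is the 250 bases before the annotated transcript start in TAIR10.1, read on the strand of the gene. Capitals mark the match to TATAAA in PRX64, whose first base lies 30 bases before the start, and PRX42 has no match.
PRX42, chr4:11648645-11648894, minus strand: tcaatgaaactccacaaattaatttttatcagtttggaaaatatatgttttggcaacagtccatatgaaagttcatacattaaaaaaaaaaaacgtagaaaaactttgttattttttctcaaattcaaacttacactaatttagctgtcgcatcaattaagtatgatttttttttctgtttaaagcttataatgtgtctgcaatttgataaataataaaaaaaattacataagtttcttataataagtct
PRX64, chr5:16852378-16852627, plus strand: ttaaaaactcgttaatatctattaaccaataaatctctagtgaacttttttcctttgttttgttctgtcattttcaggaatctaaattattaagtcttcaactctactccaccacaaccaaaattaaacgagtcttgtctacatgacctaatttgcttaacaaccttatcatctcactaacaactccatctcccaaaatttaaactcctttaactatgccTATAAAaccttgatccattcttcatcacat
On both strands of these windows TATAAA was found in 5 of the 8 members and in 47.3% of 27443 protein-coding promoters. The AC element ACCNACC, known from promoters of monolignol genes, was found in 0 of the 8 members, 2 of the 73 class III peroxidases and 6.10% of all promoters. The G-box CACGTG was found in 0 of the 8 and in 6.49% of all promoters. G-boxes were found in 3 of the 73 family promoters. An absent match says only that these letters are not in the window.

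Of the other 65 class III peroxidases, 31 passed the minimum of 1 FPKM, 21 were called higher in WT_V and 4 lower, and 6 were not called by limma. Over all tested genes 51.9% were called higher and 24.1% lower. The median log2 difference of the 31 was 0.87, against 1.21 for the 7 tested members and 0.17 for all tested genes, and the difference between relatives and members was not tested. AT1G68850 and AT5G14130, averaging 0.0230 and 0.0831 FPKM in WT, were among the genes called higher that met the minimum through WT_V alone. The 4 called lower averaged over 1 FPKM in both sets. This split and median thus rest in part on genes that entered through the set where they were high. Under median-of-ratios scaling the split was 19 and 5, and after quantile normalization 17 and 10, where the members stayed at 6 and 1. Another 5 of the 65 were listed at 0 in all 6 libraries. On the log2(FPKM + 1) scale, which gives less weight to low genes than a plain ratio does, the greatest rises were those of AT1G68850, at 9.10 to 9.58 FPKM in WT_V and 0 to 0.0369 FPKM in WT, of RCI3, a cold-induced peroxidase gene, at 13.9 ± 0.559 against 0.914 ± 0.410 FPKM, and of AT5G14130, at 5.61 ± 0.634 against 0.0831 ± 0.0573 FPKM (SD, n = 3). The greatest falls on that scale were those of PRXCA, at 1.13 ± 0.122 against 3.28 ± 0.674 FPKM, of AT5G58390, at 4.25 ± 0.163 against 9.50 ± 1.63 FPKM, and of AT2G37130, at 91.5 ± 2.81 against 123 ± 0.840 FPKM. AT2G37130 is also the closest relative of PRX42 in protein sequence, at 53.8% identity, and both were called lower under each of the 3 scalings.

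**Figure D4:**
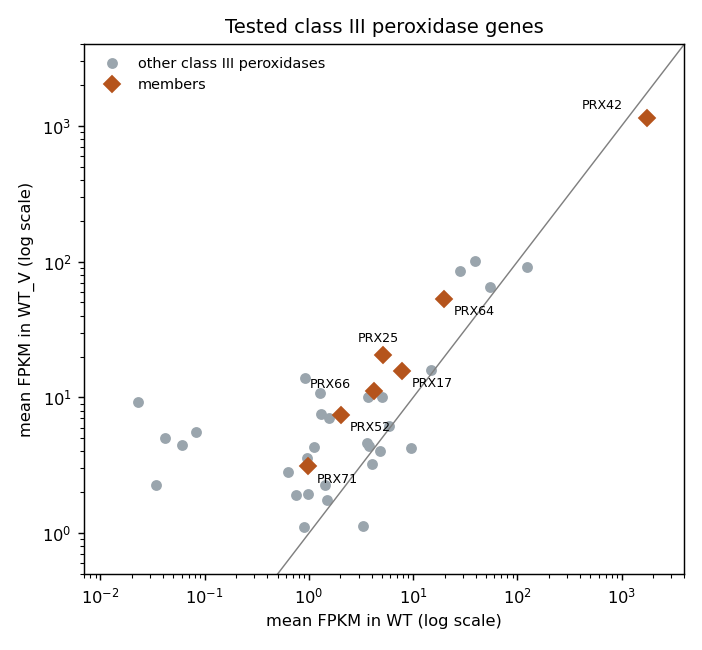
Mean FPKM in WT_V against mean FPKM in WT, both on log scales, for the 7 tested members and the 31 other tested class III peroxidases, with a line where the means are equal. PRX42 is the highest point and lies below the line, the other 6 labelled members lie above it, and the gray points at the left are genes under 0.1 FPKM in WT.

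PRX42 also dominated the whole family. As deposited, all 73 loci summed to 1747 to 1760 FPKM in WT_V and 2091 to 2125 FPKM in WT. PRX42 was 64.9% of that sum in WT_V and 82.9% in WT, and the 8 members together were 71.3% and 84.8%. Among the relatives with a known place in defence, PRXCB, which acts in the oxidative burst, measured 101 ± 2.80 FPKM against 39.1 ± 1.76 FPKM (SD, n = 3). PRXCA and PRXCB share 90.7% of their coding bases and moved in opposite directions, so their single values are uncertain where reads match both. AT4G33420, another locus linked to vascular lignin, measured 9.24 to 10.91 FPKM in WT_V against 2.63 to 4.53 FPKM in WT, and PER4 was under 0.2 FPKM on average in both sets.

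The nearest relatives of the members in sequence did not all behave alike. AT3G50990, the closest to PRX72, measured 4.28 to 4.83 FPKM in WT_V and 0.0193 to 0.102 FPKM in WT and was called higher. AT5G39580, the closest to PRX71 and to PRX25, did not reach 1 FPKM and stood at 0.0640 to 0.232 FPKM in WT_V and 0 to 0.0391 FPKM in WT. AT5G58400, the closest to PRX52, did not reach it either. AT2G18150, the closest to PRX17, measured 4.03 ± 0.453 against 4.79 ± 0.564 FPKM and was not called (limma adjusted p = 0.0766).

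Likeness of pattern was measured as the Euclidean distance over the 6 libraries between values of log2(FPKM + 1), each gene centred on its own mean. Among the other tested class III peroxidases PRX64 and PRX66 were both nearest to PRXCB, at distances of 0.150 and 0.296. PRX42 was nearest to AT2G37130 at 0.250, PRX17 to AT4G37530 at 0.162, PRX25 to AT5G47000 at 0.302, PRX52 to PA2 at 0.285 and PRX71 to AT5G19890 at 0.343. Over 18902 other tested nuclear genes the nearest was CIPK12 to PRX42 at 0.0356, AT1G12000 to PRX64 at 0.0676, NIP1 to PRX25 at 0.0886, AT4G29020 to PRX66 at 0.0945, AT3G05500 to PRX17 at 0.1, AT1G62914 to PRX71 at 0.133 and CML11 to PRX52 at 0.165. Since libraries of a set lay close together, a small distance here is mainly a like difference between the sets on the log2(FPKM + 1) scale. It does not mean a like level or fold change. NIP1 averaged 2.55 FPKM in WT_V and 0 in WT, and AT5G47000 2.26 and 0.0341 FPKM, against 20.6 and 5.16 FPKM for PRX25.

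Genes that supply, compete with or control these enzymes are described by counts, to be read against the 51.9% of all tested genes called higher and the 24.1% called lower. A gene under 1 FPKM on average in WT, such as LAC15 or AGL15, entered these counts through WT_V. Of the 19 monolignol synthesis genes 17 were called higher and 0 lower by limma, at a median log2 difference of 0.71. Under median-of-ratios scaling the split was 14 and 2, and after quantile normalization 15 and 2. C3H1 and CAD4 were not called, C3H1 at 37.4 ± 1.85 FPKM against 36.2 ± 1.13 and CAD4 at 15.3 ± 1.34 against 13.9 ± 1.39 (SD, n = 3). PAL4, a phenylalanine ammonia lyase gene at the entry of the pathway, showed the greatest rise at 22.4 ± 0.719 against 2.53 ± 0.268 FPKM, and the ligase gene 4CL3 measured 4.12 ± 0.359 against 0.642 ± 0.122 FPKM. Laccases, some of which oxidise monolignols in parallel with the peroxidases, were called higher for 6 of 6 tested under each of the 3 scalings. LAC15, known from the seed coat, measured 25.3 to 27.5 FPKM in WT_V and had a listed value of 0 in all WT libraries. LAC2 measured 7.10 ± 0.389 against 0.260 ± 0.104 FPKM. LAC4, a stem laccase, stood at 81.0 to 91.2% of the PRX64 level in WT_V and 43.8 to 47.8% in WT, and the sets did not overlap.

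Of the 13 genes for hydrogen peroxide supply 6 were tested, and 5 were called higher and 1 lower. CSD1 and CSD2, superoxide dismutase genes, measured 188 ± 4.59 against 36.7 ± 4.41 FPKM and 76.1 ± 3.08 against 15.8 ± 1.87 FPKM (SD, n = 3). CSD3, named after its values were seen, was the one called lower, at 52.4 ± 1.81 against 57.3 ± 2.02 FPKM. CSD3 was also lower under both other scalings, where 4 genes were higher. Among 13 regulators 9 were tested, and 8 were called higher and 1 lower. This count does not separate factors that activate from factors that repress, so it gives no direction for their targets. AGL15, the factor known to bind the PRX17 promoter, rose from 0.579 ± 0.231 to 8.57 ± 0.722 FPKM, and MYB85, a secondary wall factor, from 1.38 ± 0.257 to 5.50 ± 0.185 FPKM. UPB1, a factor known to repress peroxidase genes in the root, was the one called lower, at 13.6 ± 1.32 against 17.7 ± 2.47 FPKM, also under both other scalings, and it too was named after its values were seen. With quantile normalization 6 regulators were higher and 2 lower. AGL15 is also active in embryos, and the seed markers given above were higher in WT_V as well. A link between the rise of AGL15 and these markers was not tested.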

How the data were processed

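The authors deposited 1 table of FPKM values for 6 libraries, with 34484 identifiers. Per the submitters' processing notes, Bowtie2 2.2.3, TopHat2 2.0.12 and HTSeq 0.6.1 were used. Genome build, annotation, strand setting and the counting of multiply matching reads were not found in any label or header (not given in the sources used here).

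Columns were matched to samples by name, with WT_V as the remaining group. Log2(FPKM + 1) was fitted with limma 3.58.1 in R 4.3.3, using an intensity trend, for 19144 genes averaging at least 1 FPKM. Low genes have their differences understated on this scale. Shares and ratios within a library were compared by exact two-sided permutation tests (SciPy 1.17.1). The fit was run before use on simulated data with 200 changed genes. The outcome of that run is not reported here, and no result rests on it. Recovered counts, from FPKM steps and TAIR10.1 exon lengths, were whole within 0.02 for 48 of 48 member values. They describe depth and were not tested. Intervals and limits at 0 cover counting error only. Libraries of a set differed beyond counting noise, with a mean chi-square of 3.25 to 3.51 per gene, where 1 is counting noise, so none was merged for a test. Only the counts of PRX72 were pooled over a set, and the interval of their ratio leaves out this excess spread. Alignments used Biopython 1.88. Promoters are 250 bases before the annotated start.

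The members and gene lists were chosen with earlier results of these data known. Named were all members, PRX4 and PRX47 (PER4 and AT4G33420 in the text), the 3 greatest increases and decreases among called relatives with sets apart, the nearest relatives in sequence and pattern, and up to 2 called genes of each partner list. C3H1, CAD4, LAC4, RBOHF, PRXCB, CSD3, UPB1, AMS and MS2 were named after their values were seen. Alternatives covered the pseudocount, the filter, the scaling, the trend, the replicate block, organelle genes and each library left out.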

Additional observations from a re-analysis of the deposited data

How the results depend on the processing

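All 7 tested members kept their direction and their call under every alternative in which they were tested, with a highest limma adjusted p of 0.0195, for PRX71 under quantile normalization. PRX52 and PRX71 were not tested at a minimum mean of 5 FPKM. PRX72 differed by 0.27 on the log2 scale, untested, and by 1.42 with a pseudocount of 0.1, 0.059 with a pseudocount of 5 and -0.00026 with quantile normalization; without a filter it was called higher at 0.27 (limma adjusted p = 0.00235). At a minimum mean of 5 FPKM, where fewer genes are tested, 4 members were higher and 1 lower, and 7 of the other class III peroxidases were higher and 2 lower. Quantile normalization gave 10 lower relatives, 5778 higher and 8439 lower genes, and median-of-ratios scaling 7213 lower genes, against 4 relatives, 9931 and 4619 genes in the main fit; the cause was not tested. Leaving out 1 library moved PRX52 over 1.37 to 1.56, PRX71 over 0.95 to 1.16, PRX72 over 0.25 to 0.30, PRX42 over -0.62 to -0.61 and the relatives called higher over 20 to 23. The ratios inside a library, left out in the same way as an alternative chosen after seeing the data, moved by less than the spread between libraries.

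Same-numbered libraries did not deviate together (correlations of -0.016, -0.016 and 0.014), so the numbers do not pair them. With a replicate block 6 members were higher and 1 lower, and over all genes 9868 were higher and 4609 lower. PRX72 rested on 0 to 5 recovered counts in a WT library, which limits its ratio, and 3 libraries a set allow no exact p under 0.1.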

Other observations

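Neighbours of the members on the chromosome differed in both directions. RAB18, an ABA-responsive dehydrin gene next to PRX72, measured 320 ± 8.49 FPKM in WT_V and 73.7 ± 2.50 FPKM in WT (SD, n = 3). AT5G64130, on one side of PRX71, was lower in WT_V at 126 ± 1.35 against 157 ± 2.42 FPKM, while PRX71 was higher. On the other side AT5G64110, itself a class III peroxidase gene, averaged 0.148 FPKM against 0.0165 FPKM and was not tested. AT4G21970, next to PRX42, was not called (limma adjusted p = 0.908), and AT2G22425, next to PRX17, was not called either (limma adjusted p = 0.0967).

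Among the relatives below the minimum for a test, AT1G77100 measured 2.01, 1.84 and 1.89 FPKM in WT_V, and its value was 0 in each of the 3 WT libraries. RBOHF, an NADPH oxidase gene that feeds the apoplast with superoxide, measured 7.70 ± 0.573 FPKM in WT_V and 2.28 ± 0.0641 FPKM in WT (SD, n = 3).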
